A study of Mus musculus with 8 samples.

Results

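The heat shock chaperones described here are 10 of the 50902 genes in the deposited expression table. They are *Hspa8*, *Hspa1a*, *Hspa1b*, *Hsph1*, *Dnajb1*, *Bag3*, *Hsp90aa1*, *Hsp90ab1*, *Hspd1* and *Hspe1*. Their rows were found by gene symbol, and each of the 10 symbols had a row on its main chromosome. Of the 10 genes, 8 passed the filter on low values (0.1 RPKM or more on average across the libraries) and were tested. *Hspa1a* and *Hspa1b* did not pass it and are given by their reads.

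RNA-seq was performed on E14 mouse embryonic stem cells (ESCs) kept in N2B27 medium with LIF and 2i, a pair of kinase inhibitors under which ESCs stay in a naive state. Both conditions carried a PiggyBac-inserted *Baz2a* transgene with Flag and HA tags that an siRNA against *Baz2a* cannot target, and both were transfected with this siRNA and harvested 3 days afterwards. In ESC + F/H-BAZ2ArWT (4 libraries) the transgene encodes the whole protein, and in ESC + F/H-BAZ2ArΔTAM (4 libraries) it lacks the RNA-binding TAM domain, so the comparison asks what changes when BAZ2A, a chromatin-associated protein, loses this domain. Puromycin-resistant single-cell clones were screened by western blot, so the conditions are separately derived lines, and a clone effect cannot be told apart from the effect of the deletion. No label says that the libraries of a condition came from separate cultures, so p-values measure only the spread between these libraries. In bulk RNA, fewer cells expressing a gene and less RNA per cell cannot be told apart.

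Chaperones bind unfolded or partly folded proteins and keep them from aggregating. In the cytosol, HSP70 proteins bind short hydrophobic stretches in a cycle of ATP hydrolysis that J-domain proteins start and nucleotide exchange factors end, and HSP90 proteins take over clients such as kinases and steroid receptors at a later stage. In mitochondria, HSP60 and its HSP10 lid enclose proteins in a folding chamber. Heat shock factor 1 (HSF1) binds heat shock elements, inverted repeats of GAA and TTC, at many of these genes and drives their transcription under stress, whereas *Hspa8* and *Hsp90ab1* are known as the constitutive forms that unstressed cells rely on.

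The libraries held between 7.26 M and 7.69 M reads on genes in the WT condition and between 6.57 M and 8.67 M in the ΔTAM condition, recovered from the deposited values as whole multiples of the value of 1 read. These reads have no molecular identifiers, so their number gives counting error only. *Baz2a* itself had 9.95, 10.3, 10.5 and 11.2 RPKM in WT replicates 1 to 4 and 17.0, 18.6, 18.5 and 18.9 RPKM in ΔTAM replicates 1 to 4, a value that pools the transgene with what is left of the endogenous transcript. Its log2 fold change was 0.79 (SE 0.046, adjusted p = 3.4e-05 from limma), without overlap. The study reports similar BAZ2A protein in both lines. An effect of the amount of *Baz2a* RNA cannot be told apart from that of the deletion. All 8 ESC markers looked at had a mean above 0.1 RPKM. At an adjusted p under 0.05 from limma, 4 of them were lower in ΔTAM libraries and 0 higher, where 16.0% of all genes tested were lower. The lower markers were *Tdgf1* (log2 fold change -1.052), *Utf1* (-1.003), *Sox2* (-0.418) and *Esrrb* (-0.202), and *Pou5f1* and *Nanog* were not among them. The summed level of the 8 ESC markers ran from 91.9 to 94.3 RPKM in WT and from 72.7 to 78.0 RPKM in ΔTAM libraries. The 8 fibroblast markers stayed under 0.1 RPKM, 4 of them (*Col3a1*, *Lum*, *Dcn* and *Twist2*) at 0 in every library, with a summed level of 0.100 to 0.113 RPKM in WT and 0.0931 to 0.131 RPKM in ΔTAM libraries. Of 8 primitive endoderm markers 1 was above 0.1 RPKM (sums of 0.410 to 0.426 in WT and 0.217 to 0.262 in ΔTAM), as were 2 of 8 neuroectoderm markers (sums of 0.711 to 0.843 and 0.466 to 0.555), and 1 gene of each of these lists was lower in ΔTAM libraries. The part of these markers in the results below was not tested.

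Promoter sequence from RefSeq (GRCm38.p6) was at hand for 7 of the 10 genes, as windows of 300 bases from 250 bases before to 50 bases after an annotated start, and it was searched because heat shock elements are what HSF1 reads at these genes. Both strands were searched for the longer element TTCNNGAANNTTC or GAANNTTCNNGAA and for the shorter GAANNTTC or TTCNNGAA, which also lies inside every longer one. The longer element was in 198 of 32851 windows of all genes (0.603%) and in 4 of the 10 windows of the 7 chaperone genes, those of *Hsph1*, *Hspd1* and *Hspe1*, of which windows of the same gene or of neighbours overlap. The shorter was in 4946 windows (15.1%) and in 7 of the 10 windows of the chaperone genes, which belong to every gene but *Dnajb1*. A match describes the letters in the window and is not a measured binding site, and without a match nothing follows for the factor. *Hspd1* and *Hspe1* stand head to head on chromosome 1 and share a single stretch of 18 bases, which lies at positions -89 to -72 from the *Hspe1* start and is also read, on the other strand, in an *Hspd1* window. That window belongs to a start inside the annotated *Hspd1* gene. The *Hspd1* window at the annotated start of the gene holds no match, and the bases printed overlap an *Hspd1* exon. The stretch below is on the plus strand, chr1:55088053-55088082, with the shared element in capitals.
Hspe1: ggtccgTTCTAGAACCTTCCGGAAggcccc
In *Hsph1* the longer element, in capitals, lies at positions 15 to 27 from a start and within an exon of the gene, on the minus strand at chr5:149636280-149636308.
Hsph1: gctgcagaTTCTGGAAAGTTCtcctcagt
*Hspa1a* and *Hspa1b* are shown together because their windows agree at 296 of 300 positions (98.7%). The printed parts, on the minus strand at chr17:34972227-34972286 for *Hspa1a* and chr17:34959309-34959368 for *Hspa1b*, differ at 0 positions, and both hold the shorter element, in capitals, at positions -104 to -97 from the start.
Hspa1a: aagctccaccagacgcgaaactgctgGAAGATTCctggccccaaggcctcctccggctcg
Hspa1b: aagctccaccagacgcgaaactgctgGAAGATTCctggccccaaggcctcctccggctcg

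Of the 8 chaperone genes tested, 3 were higher in ESC + F/H-BAZ2ArΔTAM at an adjusted p under 0.05 (limma with Benjamini-Hochberg adjustment over 9002 genes), 0 were lower and 5 were not called. The called genes were *Hspa8*, *Hsph1* and *Dnajb1*, which encode the constitutive HSP70, its HSP110 nucleotide exchange factor and a J-domain cochaperone. *Hspa8* was 28.4% higher, *Hsph1* 25.1% and *Dnajb1* 15.8% in mean RPKM. Over all genes tested, 19.9% were called higher and 16.0% lower, against 37.5% and 0 of the 8 chaperone genes. The median log2 fold change was 0.10 over the 8 genes and 0.011 over all genes tested. At an unadjusted p under 0.05, 6 of the 8 were higher and 0 lower, against 25.0% higher and 20.8% lower over all genes. With limma voom on the recovered reads, 5 of the 9 testable genes were called higher and 0 lower, against 21.9% in each direction over 12659 genes. No chaperone gene passed the thresholds the study used, a log2 fold change of 0.58 or more in size with p under 0.05, which 3.81% of all genes tested passed in either direction.

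The 4 ΔTAM libraries lay above the 4 WT libraries without overlap for *Hspa8*, *Hsph1* and *Dnajb1*, 3 of the 8 genes tested, and for 20.5% of all genes tested. The reverse, all ΔTAM libraries below all WT libraries, held for 0 of the 8 genes and for 16.7% of all genes. ΔTAM replicate 1 gave the lowest ΔTAM value for 6 of the 8 genes and ΔTAM replicate 2 the highest for 6 of the 8.

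**Figure D1:**
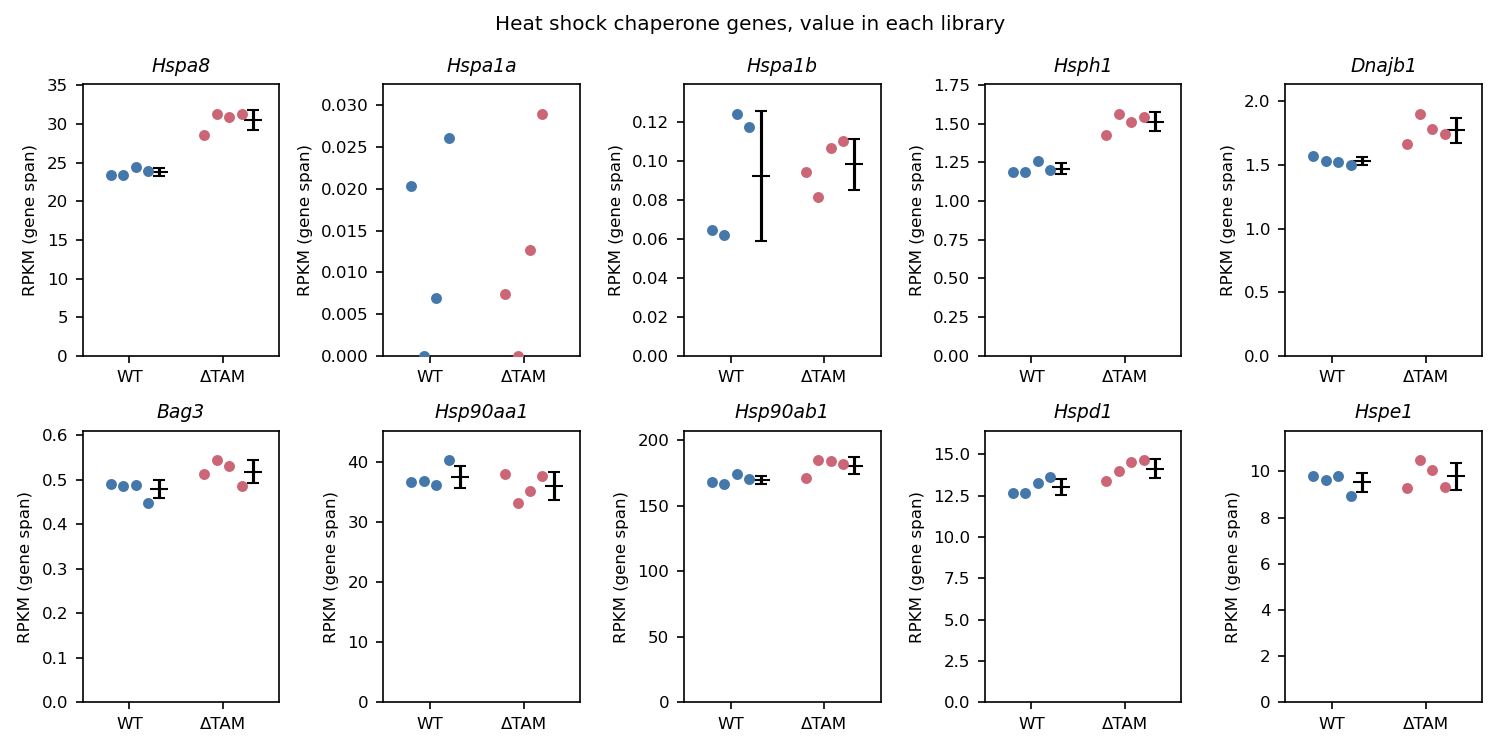
RPKM (per kilobase of genomic span, vertical axes from 0) of the 10 chaperone genes in each of the 4 WT (blue) and 4 ΔTAM (red) libraries, with black bars for the mean ± SD, left out for *Hspa1a*. For *Hspa8* the ΔTAM points (28.6 to 31.4) sit above the WT points (23.4 to 24.5), for *Hsp90aa1* and *Hspe1* the points of the conditions intermingle, and for *Hspa1a* they lie near 0 in both.

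*Hspa8* encodes HSC70, the constitutive cytosolic HSP70, and lies on chr9:40800984-40810087 of mm10 (plus strand, 3 exon blocks). It had 23.4, 23.4, 24.5 and 23.9 RPKM in WT replicates 1 to 4 and 28.6, 31.4, 30.9 and 31.3 RPKM in ΔTAM replicates 1 to 4. Even the lowest ΔTAM library was above the highest WT library, and the WT values lay closer together than the ΔTAM values. The mean was 23.8 ± 0.503 RPKM (SD, n = 4) in WT and 30.5 ± 1.28 RPKM (SD, n = 4) in ΔTAM. On the scale of log2(RPKM + 0.1), the fold change was 0.36 (standard error, SE, 0.034, 95% interval 0.28 to 0.44, adjusted p = 0.000225 from limma), and an exact two-sided permutation test of the 8 values gave p = 0.0286, the smallest that 4 against 4 libraries allow. Between 10604 and 11226 reads per WT library and between 11788 and 16541 per ΔTAM library stood behind these values. Of the 100-base windows of *Hspa8* transcripts, 28.2% also occur in transcripts of other genes, mostly in the pseudogene *Gm15459*, which had 0 reads in every library. The treatment of such reads is not given in the sources used here, so the *Hspa8* level is uncertain to that extent.

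*Hspa1a* and *Hspa1b*, the neighbouring intronless genes for the stress-inducible HSP70, were close to the limit of detection. *Hspa1a* (chr17:34969190-34972156, minus strand) had 3, 0, 1 and 4 reads in WT replicates 1 to 4 and 1, 0, 2 and 5 reads in ΔTAM replicates 1 to 4. The annotated gene *Gm20481*, with a mean of 0 RPKM, overlaps *Hspa1a* by 2225 bases on the opposite strand. As strand use is not given in the sources used here, reads from that overlap cannot be assigned. *Hspa1b* (chr17:34956436-34959238, minus strand) had 9, 9, 17 and 17 reads in WT and 12, 10, 16 and 18 reads in ΔTAM libraries, which is 0.0624 to 0.125 and 0.0815 to 0.111 RPKM. The conditions overlapped for both genes. Since 48.6% of the 100-base windows of *Hspa1a* and 49.9% of those of *Hspa1b* occur in another gene's transcripts, for the most part in each other's, their reads were also summed, which gave 12, 9, 18 and 21 reads in WT and 13, 10, 18 and 23 in ΔTAM libraries. Their sum had a log2 fold change of 0.047 (SE 0.15, 95% interval -0.30 to 0.39, adjusted p = 0.83 from limma), an interval that spans both directions. No difference in the inducible HSP70 genes was detected, and at this depth the interval stayed wide. The treatment of reads that match both genes is not given in the sources used here. Summing would not recover reads left out of the counting, so the level of the pair is uncertain to that extent.

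*Hsph1* encodes HSP105, an HSP110 protein that exchanges the nucleotide of HSP70 and holds unfolded proteins itself (chr5:149614287-149636376, minus strand, 19 exon blocks). Its values were 1.19, 1.19, 1.26 and 1.20 RPKM in WT replicates 1 to 4 and 1.43, 1.56, 1.51 and 1.54 RPKM in ΔTAM replicates 1 to 4, again without overlap. The log2 fold change was 0.30 (SE 0.035, 95% interval 0.22 to 0.38, adjusted p = 0.000557 from limma, exact permutation p = 0.0286). Between 1302 and 1979 reads per library were counted on *Hsph1*, and 0 of its 100-base windows occur in another gene.

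*Dnajb1* encodes HSP40, the J-domain protein that stimulates the ATPase of HSP70 (chr8:83608193-83612653, plus strand, 4 exon blocks). It had 1.57, 1.53, 1.52 and 1.50 RPKM in WT and 1.66, 1.90, 1.78 and 1.74 RPKM in ΔTAM libraries, and the lowest ΔTAM value exceeded the highest WT value only narrowly. The log2 fold change was 0.20 (SE 0.040, 95% interval 0.10 to 0.29, adjusted p = 0.00733 from limma, exact permutation p = 0.0286), from 331 to 451 reads per library. With a pseudocount of 1 RPKM in place of 0.1, which pulls fold changes of low genes towards 0, those of *Hsph1* and *Dnajb1* were 0.19 and 0.13 on the log2 scale and both were still called. Neither *Dnajb1* nor *Bag3* nor *Hsp90ab1* had a 100-base window in common with another gene.

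*Bag3* encodes a BAG-domain nucleotide exchange factor that hands HSP70 clients to autophagy (chr7:128523616-128546981, plus strand, 4 exon blocks). Its values of 0.492, 0.487, 0.489 and 0.448 RPKM in WT and 0.512, 0.544, 0.530 and 0.485 RPKM in ΔTAM libraries overlapped, since the lowest ΔTAM library was below the 3 highest WT libraries. Replicate 4 was the lowest library in both conditions. The log2 fold change of *Bag3* was 0.094 (SE 0.040, 95% interval 0.00084 to 0.19) and did not pass after adjustment (unadjusted p = 0.0484, adjusted p = 0.106 from limma, exact permutation p = 0.114). Another annotated transcript, *2610306O10Rik*, overlaps *Bag3* by 612 bases on the same strand, with a mean of 0.153 RPKM, so reads there cannot be assigned.

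*Hsp90ab1* and *Hsp90aa1*, which encode the constitutive HSP90 beta and the more stress-responsive HSP90 alpha, were not called, and their differences had opposite signs. *Hsp90ab1* (chr17:45567775-45573271, minus strand, 9 exon blocks) had 168, 167, 174 and 171 RPKM in WT and 171, 185, 184 and 182 RPKM in ΔTAM libraries. ΔTAM replicate 1 lay among the WT libraries, while the other 3 ΔTAM libraries were above all of them. The log2 fold change was 0.086 (SE 0.029, 95% interval 0.019 to 0.15, adjusted p = 0.0522 from limma, exact permutation p = 0.0571). The gene was called without ΔTAM replicate 1 (0.11, adjusted p = 0.00532) and with limma voom on the reads (0.089, adjusted p = 0.00377), so its call rests on these choices.

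*Hsp90aa1* (chr12:110690605-110702728, minus strand, 11 exon blocks) had 36.6, 36.9, 36.1 and 40.3 RPKM in WT and 38.0, 33.1, 35.1 and 37.6 RPKM in ΔTAM libraries, with wide overlap. Its log2 fold change was -0.058 (SE 0.054, 95% interval -0.18 to 0.067, adjusted p = 0.436 from limma, exact permutation p = 0.4). As 38.0% of its 100-base windows occur in other genes' transcripts, most often in the pseudogene *Gm12346*, and the treatment of such reads is not given in the sources used here, its level is uncertain to that extent. *Gm12346* had 40 to 72 reads per library and *Hsp90aa1* 17599 to 26502.

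*Hspd1* and *Hspe1*, the genes for mitochondrial HSP60 and HSP10, overlap by 112 bases on opposite strands at the promoter they share. *Hspd1* (chr1:55077835-55088243, minus strand, 12 exon blocks) had 12.7, 12.7, 13.2 and 13.7 RPKM in WT and 13.4, 14.0, 14.5 and 14.7 RPKM in ΔTAM libraries. The ΔTAM values were mostly higher but ΔTAM replicate 1 was below WT replicate 4, and the log2 fold change of 0.11 (SE 0.038, 95% interval 0.026 to 0.20) missed the threshold (adjusted p = 0.0503 from limma, exact permutation p = 0.0571). It was called without ΔTAM replicate 1 (0.14, adjusted p = 0.022), without WT replicate 4 (0.14, adjusted p = 0.0332) and with voom (0.12, adjusted p = 0.00556), while quantile normalization gave 0.056 (adjusted p = 0.345).

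*Hspe1* (chr1:55088132-55091307, plus strand, 4 exon blocks) had 9.79, 9.63, 9.79 and 8.93 RPKM in WT and 9.30, 10.5, 10.1 and 9.31 RPKM in ΔTAM libraries. The values of the conditions were interleaved, and *Hspe1* was not called, with a log2 fold change of 0.037 (SE 0.050, 95% interval -0.079 to 0.15, adjusted p = 0.605 from limma, exact permutation p = 0.571). The difference between the changes of *Hspd1* and *Hspe1* was not tested. The treatment of strand in the counting is not given in the sources used here, so reads from their overlap cannot be assigned. Of the 100-base windows of their transcripts, 23.4% for *Hspd1* and 10.0% for *Hspe1* occur in other genes, and the near copy that shares most with *Hspd1*, the pseudogene *Hspd1-ps3*, had 3 to 13 reads per library.

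**Figure D2:**
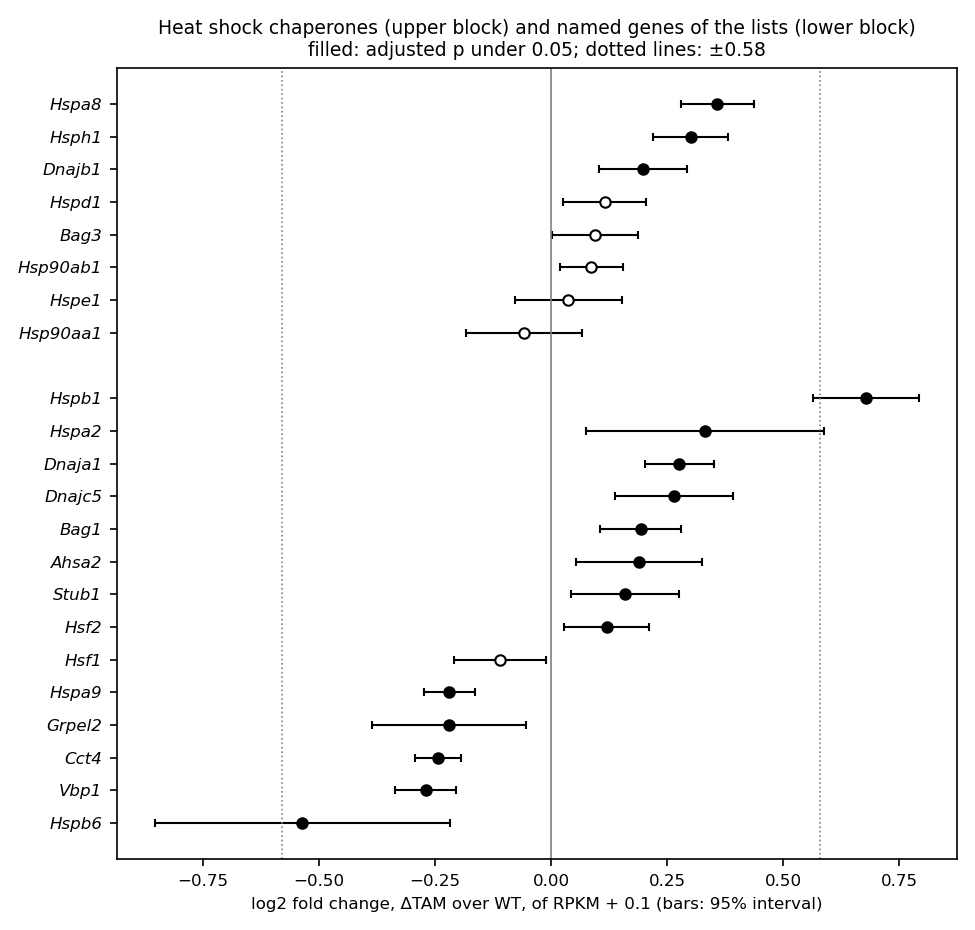
Log2 fold change of RPKM + 0.1, ΔTAM over WT, with its 95% interval from limma, for the 8 tested chaperone genes (upper block) and the named genes of other chaperone lists (lower block), filled where the adjusted p is under 0.05. *Hspa8* (0.36), *Hsph1* (0.30) and *Dnajb1* (0.20) are filled in the upper block and no interval there reaches the dotted line at 0.58, whereas *Hspb1* (0.68) lies beyond it.

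The methods of the study describe coverage of exons, but the deposited RPKM came in whole reads when multiplied by the genomic span of a gene. They were therefore read as values per kilobase of span, on which a gene such as *Bag3*, whose span is 9.12 times its exons, appears low. To compare levels between genes, the values were rescaled from span to exon length in GENCODE vM21, the bases covered by exons of any annotated transcript. This length grows with the transcripts annotated, as with *Hspa8* (4301 bases, 10 transcripts) and *Hsph1* (7266 bases, 11 transcripts). *Bag3* has 2562 bases from 1 transcript and *Hspd1* 2642 bases from 3. The order of genes and the crossings between them therefore depend on this choice, and another length was not tested. On this exon-length scale *Hsp90ab1* was the most abundant of the 10 genes, with 311 ± 5.74 RPKM (SD, n = 4) in WT, followed by *Hsp90aa1* with 115 ± 5.84, *Hspd1* with 51.4 ± 1.90, *Hspa8* with 50.4 ± 1.07 and *Hspe1* with 20.5 ± 0.886. *Bag3* with 4.37 ± 0.189, *Hsph1* with 3.67 ± 0.106 and *Dnajb1* with 2.13 ± 0.0407 RPKM formed a lower tier, and *Hspa1b* and *Hspa1a* came last with 0.0922 and 0.0133 RPKM. In the WT libraries each gene was above the next in this order without overlap, except that *Hspd1* and *Hspa8* overlapped.

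In the ΔTAM libraries the exon-length levels were 330.4 ± 11.9 for *Hsp90ab1*, 111 ± 7.05 for *Hsp90aa1*, 64.6 ± 2.71 for *Hspa8*, 55.7 ± 2.25 for *Hspd1*, 21.1 ± 1.27 for *Hspe1*, 4.72 ± 0.233 for *Bag3*, 4.60 ± 0.182 for *Hsph1* and 2.47 ± 0.141 for *Dnajb1* (SD, n = 4). *Hspa8* thus stood above *Hspd1*, and the lowest *Hspa8* library (60.6) was above the highest *Hspd1* library (57.8). *Bag3* and *Hsph1*, which were apart in WT, overlapped in ΔTAM. The summed reads of the 10 genes made up 1.20%, 1.19%, 1.23% and 1.25% of the reads on genes in WT replicates 1 to 4 and 1.27%, 1.29%, 1.30% and 1.32% in ΔTAM replicates 1 to 4. The HSP90 pair took between 76.1% and 76.7% of these reads in WT and between 73.1% and 74.4% in ΔTAM libraries, so most of the reads behind the sum are from HSP90.

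**Figure D3:**
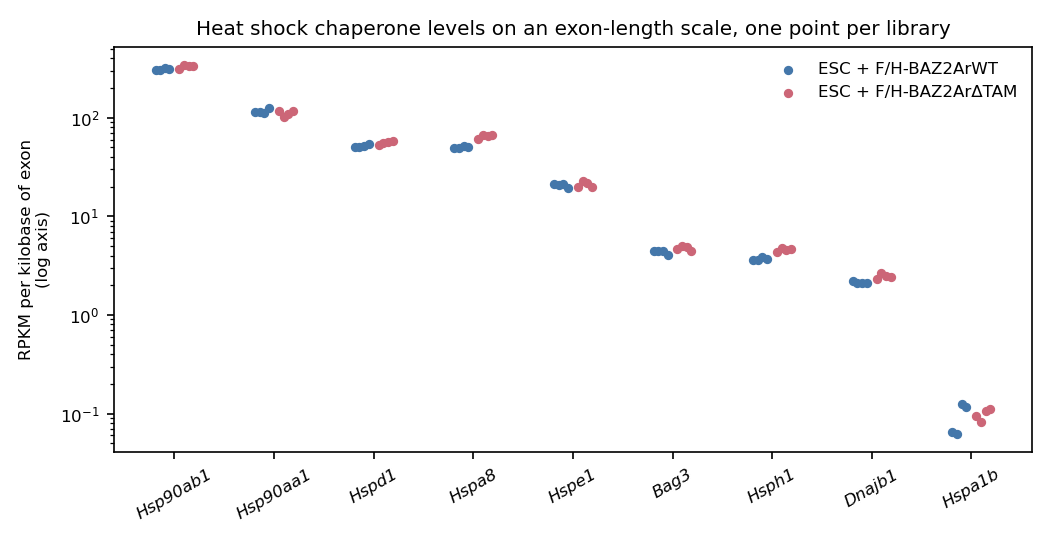
Level per kilobase of exon (log axis) of the chaperone genes with reads in every library, a point per library, WT in blue and ΔTAM in red, ordered by the WT mean. The genes span from *Hsp90ab1* (311 RPKM in WT) to *Hspa1b* (0.0922 RPKM), and *Hspd1* and *Hspa8* overlap in blue but not in red.

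Ratios within a library, taken on the exon-length scale, show how the chaperones stood to one another. The *Hspa8* level was 13.5 to 13.8 times that of *Hsph1* in WT (median 13.7) and 14.0 to 14.2 times in ΔTAM libraries (median 14.0), without overlap but with ranges that nearly touch. It was 22.7 to 24.4 times that of *Dnajb1* in WT (median 23.8) and 25.0 to 27.3 times in ΔTAM (median 26.3), and 11.1 to 12.4 times that of *Bag3* in WT (median 11.4) and 13.0 to 15.0 times in ΔTAM (median 13.5). The level of *Hspa8* relative to each of these 3 genes was thus higher in every ΔTAM library than in every WT library, and least so relative to *Hsph1*. *Hsp90aa1* made up 25.9% to 28.4% of the HSP90 level in WT (median 27.0%) and 23.2% to 27.3% in ΔTAM (median 25.1%), which overlapped, as did the *Hspd1* to *Hspe1* ratio with 2.37 to 2.80 in WT (median 2.44) and 2.45 to 2.88 in ΔTAM (median 2.64).

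The rest of the chaperone machinery was read from 8 lists that hold 87 genes, of which 71 were tested. Of these 71, 13 were higher and 12 lower in ΔTAM libraries (limma, adjusted p under 0.05), with a median log2 fold change of 0.0060, and both shares are close to those over all genes given above. This split depended on the scaling, with 9 higher and 16 lower after median-ratio scaling and 10 higher and 19 lower after quantile normalization. Over all genes tested the split moved as well, to 18.5% higher and 17.8% lower after median-ratio scaling and to 17.5% higher and 19.1% lower after quantile normalization. The lists are given below by the part their genes play beside the 10 chaperones.

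Among heat shock factors and their binding protein, 1 of 3 tested genes was higher and 0 lower (2 of the 5 were under the filter). Of all genes tested, 19.9% were higher and 16.0% lower. *Hsf1*, the main stress-activated factor, had 0.315, 0.296, 0.276 and 0.313 RPKM in WT and 0.285, 0.278, 0.257 and 0.260 RPKM in ΔTAM libraries, which overlapped, with a log2 fold change of -0.11 (SE 0.043, adjusted p = 0.0808 from limma). *Hsf1* was called lower in 2 of 17 settings, without WT replicate 3 (-0.14, adjusted p = 0.0379) and after quantile normalization (-0.13, adjusted p = 0.049). *Hsf2*, a factor that can pair with HSF1, had 0.304, 0.262, 0.277 and 0.269 RPKM in WT and 0.323, 0.309, 0.300 and 0.310 RPKM in ΔTAM libraries. These overlapped in 1 library each, and its log2 fold change of 0.12 (SE 0.039, adjusted p = 0.0485) lost its call in 13 of 17 alternative settings, among them leaving out any library but WT replicate 1 (adjusted p of 0.0141 to 0.115 over the libraries left out). The mRNA levels of these factors do not report their activity.

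Of the HSP70 and HSP110 family genes outside the endoplasmic reticulum other than the 10, 2 of 4 tested were higher and 1 lower. The shares of all genes tested were 19.9% and 16.0%. The median log2 fold change of the list was 0.0077. Voom, whose filter let in 6 genes, called 2 higher and 3 lower with a median of -0.16, where it called 21.9% of all genes in each direction, so the median differed in sign between these tests. Its added calls were *Hspa12a*, a divergent HSP70 (-0.60, SE 0.16, adjusted p = 0.00339, from 32 to 63 reads per library), and *Hspa4l*, of the HSP110 family (-0.81, SE 0.24, adjusted p = 0.010, from 10 to 25 reads per library), both without overlap between the conditions. *Hspa9*, the mitochondrial HSP70 mortalin, had 10.2, 10.1, 10.1 and 10.0 RPKM in WT and 8.43, 8.90, 8.80 and 8.52 RPKM in ΔTAM libraries, without overlap, and its log2 fold change was -0.22 (SE 0.024, adjusted p = 0.00042). *Hspa2*, a germline HSP70, rose from a mean of 0.465 to 0.615 RPKM, a log2 fold change of 0.33 (SE 0.11, adjusted p = 0.0497) that rested on 57 to 97 reads per library and was lost in 13 of 17 settings, among them leaving out any library but WT replicate 4 (adjusted p of 0.0462 to 0.115).

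Of 10 tested cytosolic J-domain cochaperones, 2 were higher and 1 lower, where 19.9% of all genes tested were higher and 16.0% lower. *Dnaja1*, a farnesylated partner of HSC70, had 0.944, 0.954, 0.975 and 1.03 RPKM in WT and 1.23, 1.22, 1.17 and 1.19 RPKM in ΔTAM libraries, a log2 fold change of 0.28 (SE 0.032, adjusted p = 0.00057) with no overlap. *Dnajc5*, which encodes cysteine string protein, rose from 0.386 to 0.484 RPKM on average (0.26 on the log2 scale, SE 0.055, adjusted p = 0.00791). Beside the same shares of all genes, 1 of 5 tested genes of the BAG family and other nucleotide exchange factors was higher and 0 lower. This was *Bag1*, an HSP70 exchange factor linked to the proteasome, with 1.14, 1.22, 1.18 and 1.09 RPKM in WT and 1.30, 1.38, 1.33 and 1.34 RPKM in ΔTAM libraries (0.19 on the log2 scale, SE 0.038, adjusted p = 0.0061).

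The small heat shock proteins, which hold unfolded proteins without ATP, held the genes with the largest rise and the largest fall of the 71 list genes in the main test. *Hspb1*, which encodes HSP27, had 19.9, 20.9, 21.8 and 18.8 RPKM in WT and 31.2, 33.7, 33.3 and 32.1 RPKM in ΔTAM libraries. Its log2 fold change was 0.68 (SE 0.049, adjusted p = 8.2e-05), and in the main test it was the only list gene past the thresholds of the study. *Hspb6*, which encodes HSP20, went the other way, with 0.40, 0.440, 0.434 and 0.410 RPKM in WT and 0.230, 0.245, 0.201 and 0.385 RPKM in ΔTAM libraries. ΔTAM replicate 4 was close to the WT values, and the log2 fold change was -0.54 (SE 0.14, adjusted p = 0.0186) from 34 to 74 reads per library. It was -0.17 with a pseudocount of 1 RPKM, and with a pseudocount of 0.01 RPKM (-0.69), with voom (-0.68) and without ΔTAM replicate 4 (-0.68) it passed 0.58 in size, so *Hspb6* was then past the thresholds of the study as well. Of 4 tested genes of this list 1 was higher and 2 lower, and the other 5 of its 9 genes were under the filter. Among all genes tested, 19.9% were higher and 16.0% lower. The median of the list was -0.091 in the main test and 0.080 with voom, which tested 5 genes and called the same numbers.

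**Figure D4:**
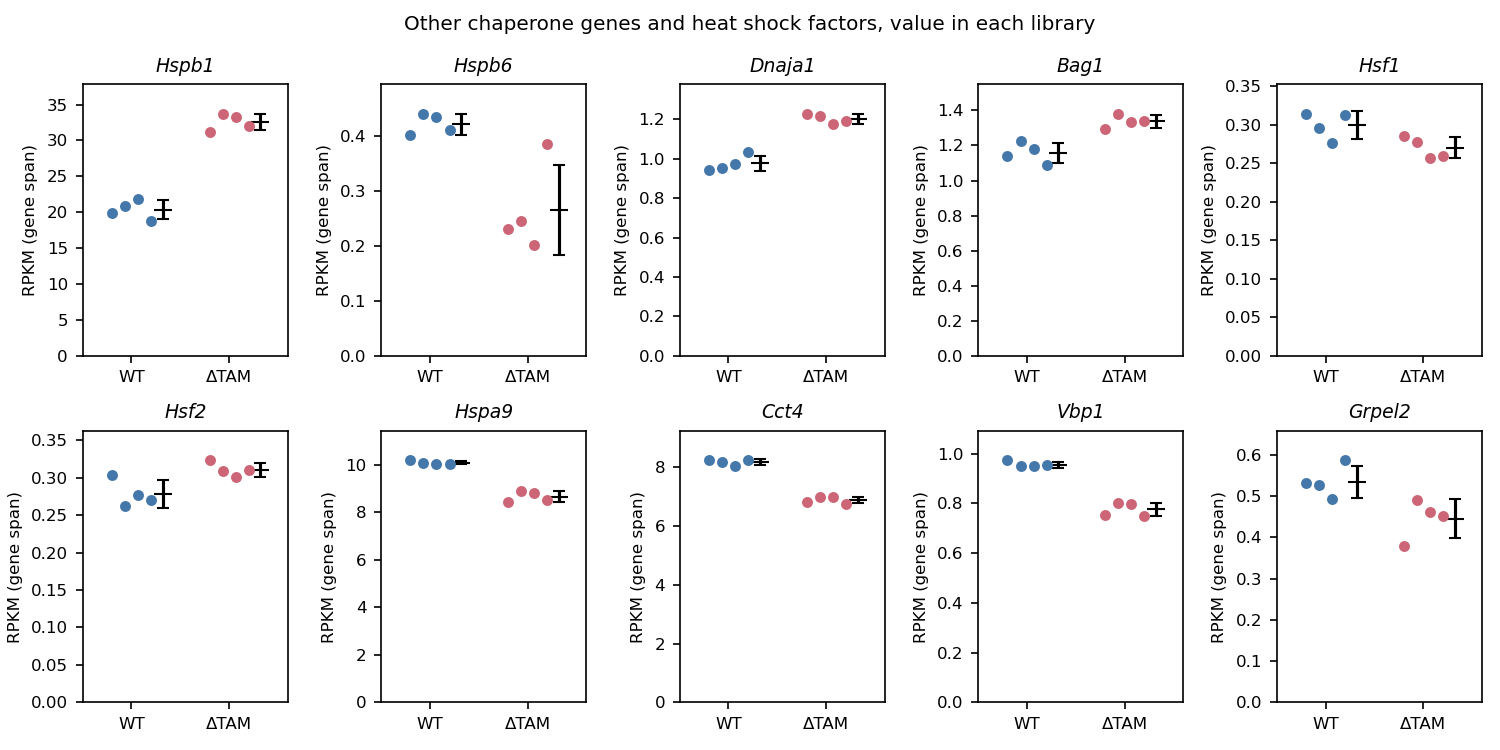
RPKM (per kilobase of genomic span, vertical axes from 0) in each WT (blue) and ΔTAM (red) library for *Hsf1*, which was not called, and for *Hsf2* and other chaperone genes that were, with black bars for the mean ± SD. *Hspb1* (18.8 to 21.8 in WT, 31.2 to 33.7 in ΔTAM) and *Dnaja1* are higher in every ΔTAM library, and *Hspa9* (10.0 to 10.2 in WT, 8.43 to 8.90 in ΔTAM), *Cct4* and *Vbp1* are lower in every one.

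All 16 HSP90 cochaperones were tested, of which 4 were higher and 0 lower, with a median log2 fold change of 0.036. At an unadjusted p under 0.05, 6 were higher and 1 lower, and voom called 4 higher and 0 lower. The shares of all genes called higher under the same rules were 19.9% in the main test, 25.0% at the unadjusted p and 21.9% with voom. By size of change the leading genes were *Ahsa2*, a paralog of the HSP90 ATPase activator, with 0.19 (SE 0.058, adjusted p = 0.0379), and *Stub1*, the ubiquitin ligase CHIP that acts on HSP70 and HSP90 clients, with 0.16 (SE 0.050, adjusted p = 0.0404) on the log2 scale. These calls were lost in 8 of 17 and 9 of 18 settings. When single libraries were omitted, the adjusted p ran from 0.0301 to 0.0921 for *Ahsa2*, which kept its call without WT replicate 1 or ΔTAM replicate 2, and from 0.0372 to 0.0895 for *Stub1*, which kept it without ΔTAM replicate 3.

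Of the 14 subunits of the TRiC chaperonin and prefoldin, which fold actin and tubulin, 2 were higher and 3 lower. This is 14.3% and 21.4%, against 19.9% and 16.0% of all genes tested. *Cct4*, a TRiC subunit, had 8.24, 8.19, 8.03 and 8.25 RPKM in WT and 6.81, 6.99, 6.99 and 6.76 RPKM in ΔTAM libraries, with a log2 fold change of -0.24 (SE 0.021, adjusted p = 0.00016). *Vbp1*, a prefoldin subunit, had 0.974, 0.949, 0.949 and 0.954 RPKM in WT and 0.755, 0.801, 0.798 and 0.750 RPKM in ΔTAM libraries, with a log2 fold change of -0.27 (SE 0.028, adjusted p = 0.00034). For both genes the conditions were well apart.

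The mitochondrial chaperones and proteases, the list nearest to *Hspd1* and *Hspe1*, held calls in the other direction. Of 16 tested, 0 were higher and 6 lower (37.5%), with a median log2 fold change of -0.097, where 19.9% of all genes tested were higher and 16.0% lower. At an unadjusted p under 0.05, 1 was higher and 8 lower, where 25.0% of all genes were higher and 20.8% lower. Voom on 17 genes called 1 higher and 8 lower, where it called 21.9% of all genes in each direction. *Hspa9*, with the values above, belongs to this list too, as does *Grpel2*, a nucleotide exchange factor of mortalin, with 0.531, 0.527, 0.492 and 0.587 RPKM in WT and 0.379, 0.490, 0.462 and 0.451 RPKM in ΔTAM libraries. *Grpel2* had a log2 fold change of -0.22 (SE 0.072, adjusted p = 0.0462), and its highest ΔTAM library was just below its lowest WT library. The call was lost in 8 of 17 settings, among them leaving out any library but WT replicate 3 or ΔTAM replicate 2 (adjusted p of 0.037 to 0.101). *Hspd1* and *Hspe1*, at 0.11 and 0.037, were thus on the other side of 0 from most of this list, and whether they differ from it was not tested.

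**Figure D5:**
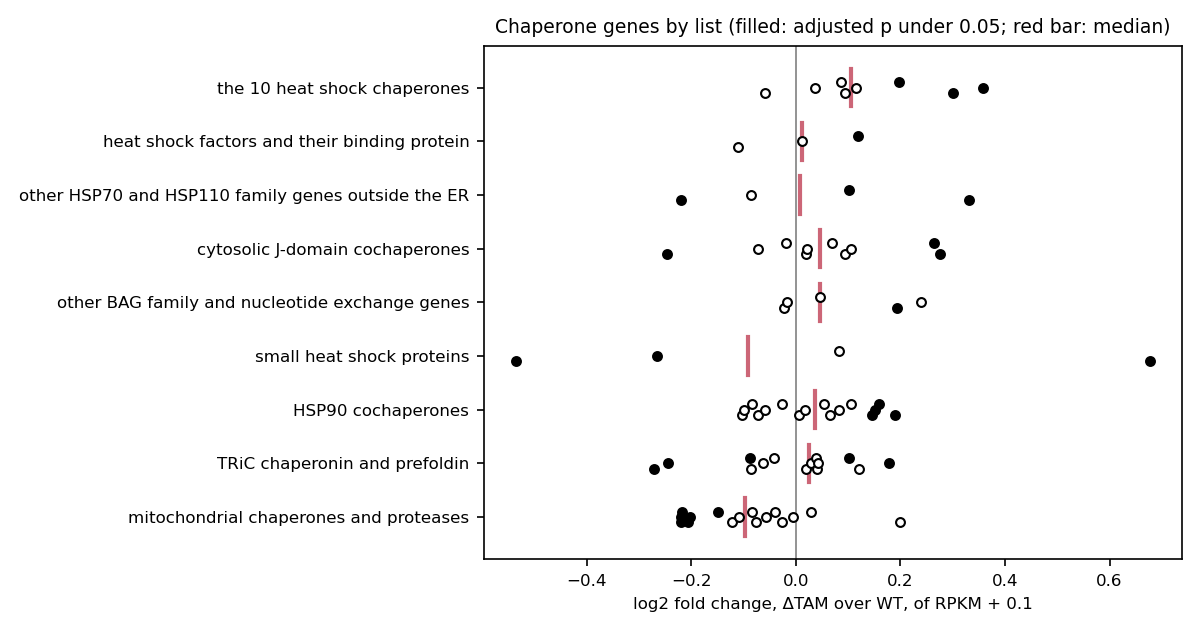
Log2 fold change of RPKM + 0.1, ΔTAM over WT, of each tested gene of the 10 heat shock chaperones and of the 8 lists, filled where the adjusted p from limma is under 0.05, with a red bar at the median. The heat shock chaperones have their 3 filled points to the right of 0 and a median of 0.10, whereas the mitochondrial list has its 6 filled points to the left and a median of -0.097.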

How the data were processed

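The authors removed ribosomal RNA reads and trimmed adapters, mapped reads to mm10 with STAR and deposited RPKM per gene and library, without pooling replicates. Annotation release, strand use and the treatment of multi-mapping reads are not given in the sources used here. RPKM times gene span gave whole multiples of 1 read for 99.5% of values above 0 (tolerance 0.02), so the values were read as per kilobase of genomic span, although the methods of the study speak of exon coverage. Repeated entries (386 of 51288) were set aside. Genes averaging 0.1 RPKM or more were fitted on log2(RPKM + 0.1) with limma 3.58.1 in R 4.3.3 (lmFit, eBayes with trend, no covariates, 8 libraries) with Benjamini-Hochberg adjustment over 9002 genes. Fold changes on this scale understate those of low genes. Exact permutation tests used RPKM. The fit was tested on simulated reads: among 9017 genes, 97% of 200 genes given a log2 difference of 1 were recovered with 6 false calls. Voom on reads (a mean of at least 10) recovered 100% of 197 among 12658 genes, with 7 false calls. The genes named were the 10 chaperones, *Baz2a*, *Hsf1*, *Hsf2* and, of each list, the 2 called genes with the largest change. Outside this rule, *Hspa12a* and *Hspa4l* were named as calls that voom added. Cell type markers and genes that overlap or share sequence with the chaperones were named as checks. The chaperone genes and lists were chosen with earlier results of these data known. Python 3.11.15 was used for sequences and figures. The 18 alternatives changed the pseudocount (0.01 or 1), the filter (none or 1 RPKM), the scaling, the variance model, the replicate block, the test (voom) or left out a library.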

Additional observations from a re-analysis of the deposited data

Results flagged for a closer look

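In 2 of 48 groups of 4 libraries looked at, a single library stood apart from the other 3 by more than Dixon's 95% critical value, and chance alone gives about 1 in 20 groups. *Bag3* had 0.448 RPKM in WT replicate 4, where the other WT libraries had 0.487 to 0.492. *Hspa2*, whose call was lost in 13 of 17 settings, had 0.777 RPKM in ΔTAM replicate 1, where the other ΔTAM libraries had 0.543 to 0.579.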

How the results depend on the processing

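*Hspa8*, *Hsph1* and *Dnajb1* kept their direction and call in all 18 alternatives, with log2 fold changes of 0.34 to 0.39, 0.19 to 0.33 and 0.13 to 0.23 and adjusted p of at most 0.00328, 0.00617 and 0.0285. No direction of the 8 genes tested was reversed. The count of chaperone genes called higher was 5 with a pseudocount of 0.01 RPKM, with a filter at 1 RPKM (7 genes tested) and with voom, and 3 to 5 with each library left out. The added calls were *Hsp90ab1* and *Hspd1*, whose adjusted p in the main test lay just above 0.05. *Hsp90ab1* was called at 0.086 with pseudocounts of 0.01 and 1 RPKM and the filter at 1 RPKM, at 0.089 with voom, and ranged from 0.075 to 0.11 with libraries left out. Quantile normalization gave 0.19 (adjusted p = 0.0734). *Hspd1* was called at 0.12 with the pseudocount of 0.01 RPKM, at 0.11 with the filter at 1 RPKM and at 0.12 with voom, and ranged from 0.098 to 0.14 with libraries left out. It was 0.056 after quantile normalization. Among the genes not called, *Hspe1* ranged from 0.0033 (without ΔTAM replicate 2; 0.0059 without WT replicate 4) to 0.060 with libraries left out, and *Hsp90aa1* from -0.085 to -0.020 (without ΔTAM replicate 2; -0.023 without WT replicate 4).

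Of the list genes, voom called 17 higher and 18 lower of 78 tested. The count higher was 8 without a filter and 8 to 10 with a library left out (8 without ΔTAM replicate 3 or 4), and the count lower was 5 of 34 tested with the filter at 1 RPKM, 19 after quantile normalization and 9 to 12 with a library left out. Whether the replicate numbers pair the samples is not settled. Same-numbered libraries had weak correlations of 0.024 to 0.062 in their deviations. Replicates 1, 2 and 4 correlated best with their own number, and replicate 3 did not. With the replicate number as a block, 4 chaperone genes were called higher, *Hspd1* being the addition (0.11, adjusted p = 0.0213), and 12 list genes were higher and 9 lower. Depth limits *Hspa1a*, with at most 5 reads in a library, and *Hspa1b*, with at most 18. *Hspa1b* missed the filter of the main test at a mean of 0.0954 RPKM. The log2 fold change of *Hspa1b* was 0.060 without a filter (adjusted p = 0.807), 0.17 with voom (adjusted p = 0.662) and -0.016 without WT replicate 2 (adjusted p = 0.938). A pseudocount of 1 RPKM moved the log2 fold changes of low genes towards 0 by over 1.5 times, to 0.19 for *Hsph1*, 0.13 for *Dnajb1*, 0.038 for *Bag3*, -0.033 for *Hsf1*, -0.17 for *Hspb6*, 0.16 for *Dnaja1*, 0.098 for *Dnajc5*, 0.12 for *Bag1*, -0.14 for *Vbp1*, 0.036 for *Hsf2*, 0.14 for *Hspa2*, 0.058 for *Ahsa2*, 0.10 for *Stub1* and -0.086 for *Grpel2*. No scaling moved the median of all genes by over 0.1 on the log2 scale.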
